A study of Homo sapiens with 24 samples.

Results

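PI103 given together with (5Z)-7-oxozeaenol was compared with (5Z)-7-oxozeaenol alone (called oxozeaenol here) in AGS, a long-established line of human stomach adenocarcinoma cells. The comparison uses the 4 libraries titled with both compounds and the 4 titled with oxozeaenol, 8 of the 24 libraries of the series, across 13947 genes tested of 23368 in the table. RNA sequencing was done 24 h after the inhibitors were added, in a study that, by its title, concerns how drugs change metabolism. The oxozeaenol group received 0.5 µM oxozeaenol, and the combination received 0.35 µM PI103 with 0.25 µM oxozeaenol, since agents in a combination were given at 50% of their concentration as single agents. The contrast therefore joins the addition of PI103 with a lower dose of oxozeaenol, and these cannot be told apart. Control cells and cells with 0.7 µM PI103 alone, 4 libraries each, are given beside it as a description. The labels do not say whether control or single-agent cells received a vehicle.

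PI103 inhibits class I PI3 kinases and mTOR. Signalling through these kinases keeps FOXO transcription factors out of the nucleus through AKT, and mTOR complex 1 promotes production of ATF4, the transcription factor of the amino acid response, and activity of SREBP factors, which drive sterol and fatty acid synthesis. Oxozeaenol inhibits TAK1 (MAP3K7), a kinase upstream of NF-kB and of the stress-activated MAP kinases.

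The combination libraries held 61.7 ± 11.1 M counts in genes (SD, n = 4) and the oxozeaenol libraries 56.6 ± 14.7 M (SD, n = 4), with a range over the 8 of 38.1 M to 77.7 M. Levels are given as CPM, counts scaled to a common library size, and a gene is called when edgeR's quasi-likelihood test gives an adjusted p under 0.05. On the first principal component, with 35.6% of the variance of the 8 libraries, all combination libraries lay on one side (15.99 to 29.3) and all oxozeaenol libraries on the other (-28.7 to -9.36). Both batch 4 libraries stood at the low end of the second component, at -33.4 and -29.8. Oxozeaenol replicate 2 stood apart in the breadth of its counts, with 18263 genes detected against 15645 to 16507 in the other libraries of its group. In it 885 genes, holding 1314 counts, were seen in no other of the 24 libraries, while the other libraries had 10 to 38 such genes each. Combination replicate 2 stood apart in the amino acid response, as given below. Epithelial markers were present throughout, with EPCAM at 753 to 867 CPM and KRT8 at 2120 to 3060 CPM over the 8 libraries. The gastric marker GKN1 was at 0 in all 8, and MUC6 did not exceed 0.0137 CPM. Of markers of other cells, PTPRC, CD3D, DCN and CDH5 did not exceed 0.0284 CPM in any of the 8 libraries. Other genes of those lists were present, with PDGFRA at 28.3 to 42.9 CPM, COL1A1 at 7.93 to 10.7 CPM and ACTA2 at 3.04 to 5.1 CPM among fibroblast genes, and LYZ at 240 to 364 CPM and CSF1R at 0.89 to 1.75 CPM among leukocyte genes. Their part in the results was not tested. No gene of the fibroblast (6 tested), leukocyte (3) or endothelium (1) list was called in the edgeR test or with DESeq2. In edgeR 3 of the fibroblast genes (LUM, COL3A1 and PDGFRB) and 0 of the others had an unadjusted p under 0.05. Without combination replicate 4, 1 fibroblast gene was called, and 2 were called in the 8 libraries alone with the batch as a block. In cultures measured in bulk, fewer cells of a kind and less RNA per cell cannot be told apart.

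Of the genes tested, 2074 differed between the combination and oxozeaenol, which is 14.9%, with 1059 higher (7.59%) and 1015 lower (7.28%) in the combination. The median absolute log2 fold change of the called genes was 0.45, and 269 of them changed by more than 1 on the log2 scale. All 4 same-batch differences had one sign for 2051 of them. When the null hypothesis was a log2 change of at most 1 in size (edgeR's glmTreat), 13 genes rejected it, or 0.0932%. These are the genes said below to be past the minimum change of 1. The groups did not overlap for 2703 genes, 19.4% of those tested, and 1667 of these were called. The median log2 fold change over all genes tested was -0.0046, against which the medians of gene groups below are set. Counts of called members in this fit are likewise to be read against the 14.9% called of all genes tested. Counts from other fits are to be read against the number of all genes called in the same fit, since list counts can move with it. The number of calls depended on single libraries. It was 1050 without combination replicate 1, 1347 without combination replicate 3, 1312 without oxozeaenol replicate 3 and 1405 without oxozeaenol replicate 2. Without combination replicate 2 or 4 it was 1851 or 1841, and without oxozeaenol replicate 4 or 1 it was 2000 or 2571. These fits tested 14048 to 14110 genes. With the batch as a replicate block it was 3090, including all 2074.

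**Figure D1:**
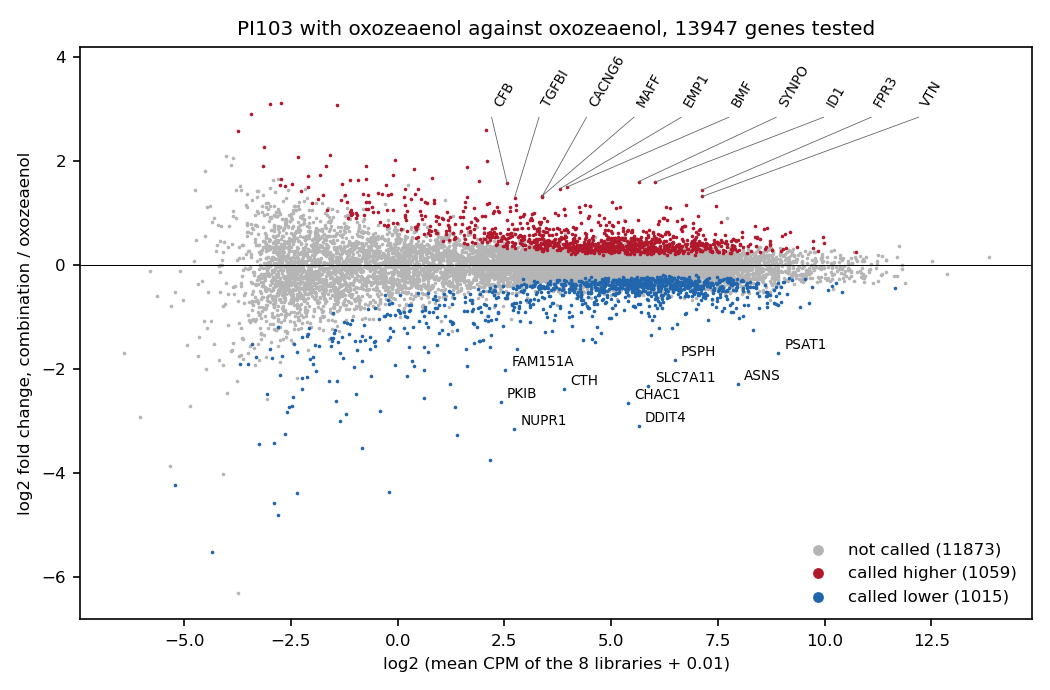
Each point is 1 of the 13947 genes tested, with the log2 of its mean CPM in the 8 libraries (plus 0.01) on the x axis and its log2 fold change, combination over oxozeaenol, on the y axis. Red points are the 1059 genes called higher, blue points the 1015 called lower, and the labelled genes are the 10 largest rises and falls at a mean of at least 5 CPM, where falls reach -3.14 and rises 1.61.

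Genes of the amino acid response fell in the combination. Of 21 tested genes of the ATF4 list, ATF4 itself included, 19 fell and none rose, with a median log2 fold change of -1.47. The list's same-batch medians were -2.22, -1.71, -1.20 and -1.17 in batches 1 to 4, and the number called was 14 to 19 when single libraries were left out, lowest without oxozeaenol replicate 2. ATF4 itself, whose product drives these genes, read 609, 622, 546 and 528 CPM in oxozeaenol replicates 1 to 4 and 391, 451, 366 and 385 CPM in the combination. It fell by 0.53 on the log2 scale (SE 0.10, adjusted p = 0.000777), with no overlap of the groups.

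ASNS makes asparagine from aspartate (chr7:97852118-97872542, minus strand, GRCh38, GENCODE release 29). Its level was 391, 619, 354 and 290 CPM with oxozeaenol and 47.2, 189, 50.7 and 53.7 CPM in the combination. It fell by 2.28 (SE 0.37, adjusted p = 0.000298). The high value in each group was replicate 2, and without combination replicate 2 the log2 fold change was -3.04. Cells with PI103 alone held 28.0 ± 4.18 CPM (SD, n = 4) and control cells 1499 ± 331 CPM (SD, n = 4), so all 4 combination libraries lay above the PI103 mean and below every oxozeaenol library. A transcript with no gene name on the same strand shares 44.6% of the exonic bases of ASNS, and reads there could be divided between them. CHAC1, a glutathione-degrading enzyme, was at 94.4, 112, 44.8 and 38.6 CPM with oxozeaenol and at 6.91, 27.7, 6.69 and 5.17 CPM in the combination. Its log2 fold change was -2.64 (SE 0.47, adjusted p = 0.000935), and -3.53 without combination replicate 2. With only the 8 libraries in the fit its adjusted p was 0.051.

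**Figure D2:**
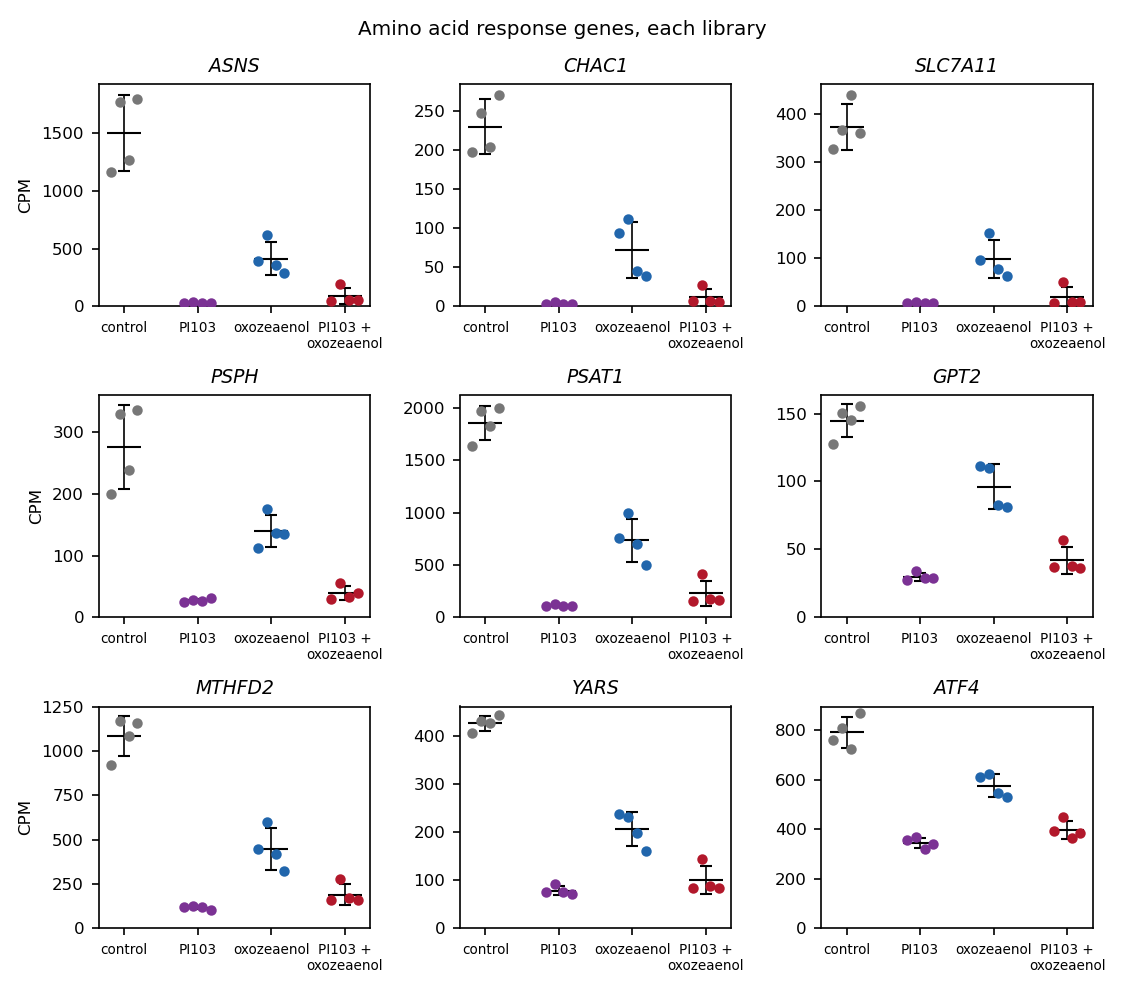
CPM of 9 genes in each library of control, PI103, oxozeaenol and the combination, with the horizontal bar at the mean and the error bar at 1 SD (n = 4). In the combination, replicate 2 (the second point) is the highest for each gene, as with ASNS at 189 CPM against 47.2 to 53.7 CPM in the other 3 libraries.

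The binding element shared by C/EBP and ATF factors, TGATGNAA, was sought on both strands in RefSeq promoter windows of 300 bases (GRCh38.p14). It was present in 4 of the 18 ATF4-list genes with a window (22.2%). The share was 3.67% of all 27305 promoters and 1.76% of those of genes tested. The genes were ASNS, CHAC1, ATF3 and FGF21. Below, the 250 bases before the gene start are shown 5′ to 3′ on the gene's strand for the pair named above, with the matched element in capitals. The windows are chr7:97872409-97872658 (minus strand) and chr15:40953221-40953470 (plus strand). The element starts 68 bases before the start of ASNS and, on the opposite strand, 209 bases before that of CHAC1. A match of letters does not show binding.
ASNS: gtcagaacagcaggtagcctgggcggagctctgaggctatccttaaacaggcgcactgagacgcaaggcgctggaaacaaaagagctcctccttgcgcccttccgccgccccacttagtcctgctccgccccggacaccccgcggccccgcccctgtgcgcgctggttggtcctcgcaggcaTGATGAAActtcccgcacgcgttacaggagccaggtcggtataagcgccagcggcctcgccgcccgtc
CHAC1: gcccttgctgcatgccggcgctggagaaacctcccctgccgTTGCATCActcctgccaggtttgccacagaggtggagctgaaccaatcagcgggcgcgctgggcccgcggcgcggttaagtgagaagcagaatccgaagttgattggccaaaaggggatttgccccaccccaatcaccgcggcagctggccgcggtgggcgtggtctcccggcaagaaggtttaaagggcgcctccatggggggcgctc

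NUPR1, a small stress-induced chromatin protein, had the largest fall among genes at 5 CPM or more. It read 10.6, 22.1, 7.24 and 7.52 CPM with oxozeaenol and 0.606, 3.52, 0.729 and 0.568 CPM in the combination. Its log2 fold change was -3.14 (SE 0.47, adjusted p = 0.000123), and -4.24 without combination replicate 2. DDIT4, an inhibitor of mTOR complex 1, was at 109, 173, 45.8 and 29.2 CPM and then at 3.16, 32.7, 2.95 and 3.45 CPM. The combination's replicate 2 overlapped the oxozeaenol group. DDIT4 fell by 3.08 (SE 0.67, adjusted p = 0.00464). Its change was -4.82 without that library, and its adjusted p was 0.114 when only the 8 libraries were fitted. An antisense gene overlaps 41.2% of its exonic bases. CTH, which makes cysteine from cystathionine, fell by 2.38 (SE 0.34, adjusted p = 8.02e-05), from 17.3 to 42.8 CPM with oxozeaenol to 3.01 to 9.85 CPM, and by 2.99 without combination replicate 2. GPT2, a mitochondrial alanine transaminase, had the smallest adjusted p of the list (1.47e-06) at a log2 fold change of -1.19. DDIT3, the stress factor CHOP, fell by 1.43 and SESN2 by 1.18, and ADM2 had a log2 fold change of -2.29, or -3.02 without combination replicate 2. Other-strand genes cover 31.6% of the exonic bases of DDIT3. In low counts, TRIB3 held 46, 196, 10 and 16 counts with oxozeaenol and 2, 17, 1 and 3 in the combination, and its call was lost without oxozeaenol replicate 2 (adjusted p = 0.0501). FGF21 held 76, 337, 11 and 16 counts and then 2, 17, 0 and 1, and lost its call without oxozeaenol replicate 2 (adjusted p = 0.054) or combination replicate 1 (0.0621). Of the uncalled members, ATF3 was at 46.8 to 103 CPM with oxozeaenol and at 58.3 to 85.2 CPM in the combination, with a log2 fold change of 0.02 (adjusted p = 0.968).

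Called amino acid transporters and serine-pathway enzymes all fell in the edgeR test, as did 11 of 12 called tRNA synthetases. Of 19 tested transporters 7 fell and none rose (36.8%, median -0.29). SLC7A11, the cystine importer, read 95.8, 153, 78.3 and 62.7 CPM with oxozeaenol and 7.62, 51.3, 9.71 and 10.0 CPM in the combination. Its log2 fold change of -2.31 (SE 0.47, adjusted p = 0.0025) was -3.43 without combination replicate 2, and the adjusted p was 0.0851 with only the 8 libraries fitted. The glycine transporter SLC6A9 fell by 1.48 (adjusted p = 8.67e-05), from 30.6 to 43.8 CPM to 9.82 to 20.6 CPM. SLC3A2 and SLC7A5, the chains of a leucine exchanger, fell by 0.60 and 0.72. For SLC3A2 the ranges were 299 to 397 CPM and 209 to 268 CPM, without overlap.

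Of 20 tested serine, glycine and one-carbon enzymes, PSPH, PSAT1, MTHFD2, SHMT2 and GCSH fell (25%, median of the list -0.38). PSPH, which releases serine in the last step of its synthesis, was at 113, 175, 136 and 136 CPM with oxozeaenol and at 29.2, 55.7, 33.6 and 39.9 CPM in the combination. It fell by 1.82 (SE 0.21, adjusted p = 3.73e-06). PSAT1, the enzyme before it, fell by 1.69 (SE 0.26, adjusted p = 0.000156), from 499 to 996 CPM to 161 to 412 CPM. The mitochondrial folate enzyme MTHFD2, overlapped on the other strand over 33.2% of its exonic bases, fell by 1.23 (adjusted p = 7.49e-05). SHMT2 fell by 0.75, with overlapping groups. GCSH (-0.41, adjusted p = 0.0222) lost its call in 4 of the 8 fits that leave out 1 library (without combination replicate 1 or 3, or oxozeaenol replicate 3 or 4, adjusted p up to 0.102). With the replicate block 8 of these enzymes were called.

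Cytosolic aminoacyl-tRNA synthetases, which charge tRNAs with amino acids, were called for 12 of 20 members, 11 lower and 1 higher (median -0.52). YARS read 238, 232, 198 and 162 CPM with oxozeaenol and 83.6, 143, 87.2 and 84.4 CPM in the combination, a log2 fold change of -1.06 (SE 0.15, adjusted p = 5.35e-05). CARS fell by 1.13 and GARS by 1.01. The member that rose was QARS, from 156 to 184 CPM to 192 to 209 CPM (0.26, adjusted p = 0.0153). The QARS call was lost without combination replicate 1 or 3 or oxozeaenol replicate 2 (adjusted p up to 0.0769). For YARS, CARS and GARS, combination replicate 2 was the highest of its group.

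PKIB and FAM151A were also among the 10 largest falls at a mean of 5 CPM or more. PKIB, an inhibitor protein of protein kinase A, was at 5.52, 7.28, 8.997 and 14.7 CPM with oxozeaenol and at 1.08, 1.70, 1.51 and 1.63 CPM in the combination (-2.63, SE 0.32, adjusted p = 9.06e-06). Control cells held 1.49 ± 0.33 CPM and PI103 cells 1.76 ± 0.44 CPM (SD, n = 4). FAM151A read 8.25, 7.63, 8.63 and 12.0 CPM and then 1.97, 2.61, 2.03 and 2.46 CPM (-2.01, SE 0.21, adjusted p = 7.22e-07). The opposite-strand gene ACOT11 covers 37.9% of its exonic bases, and it is not stated whether counting used strand. For both genes, chosen among called falls with 1 sign in all 4 batches, every combination library lay below every oxozeaenol library. The other genes past the minimum change of 1 were NUPR1, CTH, PSPH, AKR1C3, ALDH1A1, ANK2 and ECM2, lower, and SYNPO, KLK14, SIGLEC6 and DFNA5, higher.

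Among genes at a mean of 5 CPM or more, SYNPO, an actin-binding protein, had the largest rise (chr5:150601080-150659220, plus strand, GRCh38). It read 27.0, 25.6, 25.5 and 20.5 CPM with oxozeaenol and 88.3, 68.1, 80.4 and 64.3 CPM in the combination. The log2 fold change was 1.61 (SE 0.13, adjusted p = 1.68e-08), with same-batch differences of 1.41 to 1.71. Control cells held 41.3 ± 1.35 CPM and PI103 cells 117 ± 2.64 CPM (SD, n = 4). BMF, a pro-apoptotic BCL2-family protein, rose by 1.51 (SE 0.17, adjusted p = 2.81e-06), from 7.29 to 8.97 CPM to 19.1 to 24.7 CPM. EMP1, a membrane protein of epithelia, rose by 1.48, from 6.84 to 7.96 CPM to 17.97 to 24.1 CPM. FPR3, a formyl peptide receptor, rose by 1.45, from 39.5 to 94.9 CPM to 176 to 238 CPM. The small MAF transcription factor MAFF rose by 1.33, the calcium channel subunit CACNG6 by 1.31 and the matrix protein TGFBI by 1.30. VTN, vitronectin, read 107, 100, 65.0 and 48.1 CPM with oxozeaenol and 249, 209, 164 and 182 CPM in the combination (1.33, SE 0.25, adjusted p = 0.00115). In each of the genes of this paragraph the groups did not overlap, which held for 19.4% of all genes tested. The genes were chosen among called ones with 1 sign in all 4 batches, so their separation adds no weight. The PI103 means of SYNPO and BMF, 117 and 50.6 CPM, were above every combination library, while the levels of MAFF were 43.9 CPM in control, 19.0 CPM with PI103 and 12.7 to 17.8 CPM in the combination.

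**Figure D3:**
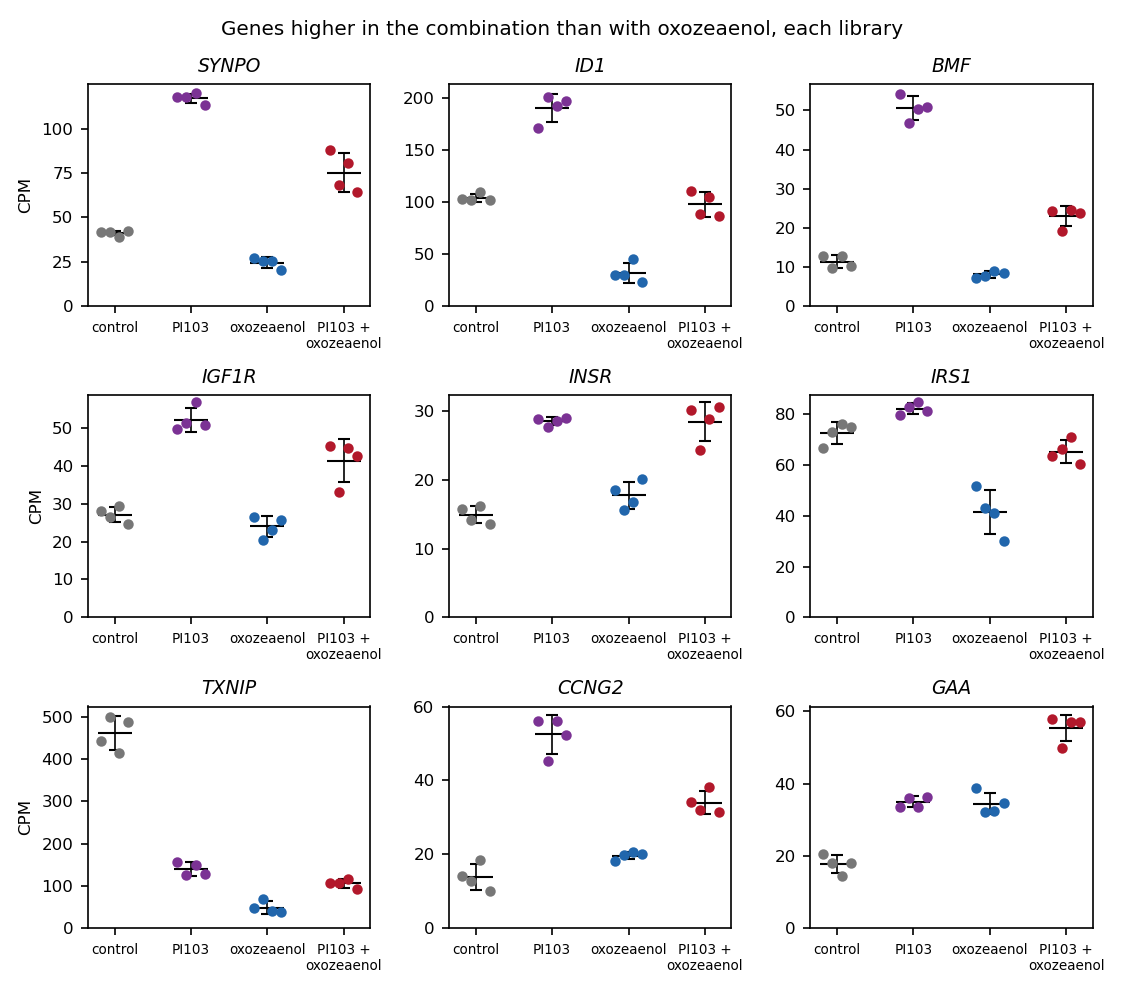
CPM of 9 genes higher in the combination than with oxozeaenol, for each library of 4 groups, with the horizontal bar at the mean and the error bar at 1 SD (n = 4). SYNPO lies at 64.3 to 88.3 CPM in the combination and 20.5 to 27.0 CPM with oxozeaenol. In none of the 9 genes, which were chosen among called ones, do these 2 groups overlap, against 19.4% of all genes tested without overlap.

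ID1, an inhibitor of DNA binding by helix-loop-helix factors, was among the 10 largest of these rises. It was at 30.4, 30.4, 45.7 and 23.0 CPM with oxozeaenol and at 111, 88.8, 105 and 86.9 CPM in the combination (1.60, SE 0.18, adjusted p = 2.77e-06). Control cells held 104 ± 3.67 CPM (SD, n = 4). The groups did not overlap, as in the other rises chosen in this way.

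FOXO targets and growth factor receptors were higher in the combination. Of 19 tested members of this list 12 rose and SESN1 fell, with a median log2 fold change of 0.41 and same-batch medians of 0.29 to 0.49. The number called was 11 to 13 when single libraries were left out. IGF1R, the IGF-1 receptor (chr15:98648539-98964530, plus strand, GRCh38), read 26.5, 20.5, 23.1 and 25.8 CPM with oxozeaenol and 45.1, 33.1, 44.7 and 42.5 CPM in the combination. It rose by 0.78 (SE 0.12, adjusted p = 7.28e-05). The insulin receptor INSR rose by 0.68 (SE 0.11, adjusted p = 0.000176), from 18.5, 15.7, 16.7 and 20.1 CPM to 30.2, 24.3, 28.8 and 30.6 CPM. Its mean of 28.5 CPM in the combination was that of PI103 alone, at 50% of the PI103 dose. IRS1, the adaptor of both receptors, rose by 0.65 (adjusted p = 0.000658) and ERBB3 by 0.41. ERBB2 (0.27, adjusted p = 0.0199) lost its call without combination replicate 1 or 3 or oxozeaenol replicate 2 or 3 (adjusted p up to 0.0948). IRS2, a further adaptor, was at 0 in all 24 libraries.

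Of the transcription factors, FOXO1 rose by 0.71 (SE 0.11, adjusted p = 8.67e-05), from 4.98 to 6.99 CPM to 8.73 to 9.90 CPM, and FOXO4 by 0.94. TXNIP, which binds thioredoxin and limits glucose uptake, was at 47.3, 70.1, 39.9 and 37.6 CPM with oxozeaenol and at 108, 108, 116 and 92.0 CPM in the combination (1.12, SE 0.23, adjusted p = 0.00174). Control cells held 461 ± 39.6 CPM and PI103 cells 140 ± 15.6 CPM (SD, n = 4), both above the combination. CCNG2, a cyclin that slows division, rose by 0.79 (adjusted p = 0.000632) and KLF6 by 0.53. CCNG2 was at 52.5 CPM with PI103 and 13.9 CPM in control. CDKN1B (0.26, adjusted p = 0.0266), the inhibitor p27, lost its call in 5 of the 8 fits without 1 library (combination replicates 1, 2 and 3, oxozeaenol replicates 3 and 4, adjusted p up to 0.0871). SESN1, an antioxidant protein also listed as a p53 target, fell by 0.34 (adjusted p = 0.0084).

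The FOXO core TGTTTAC was found on either strand in 4 of 17 list members with a promoter window (23.5%). The share was 3.41% of all promoters and 2.3% of those of genes tested. The genes were TXNIP, FOXO4, BCL2L11 and TRIB2. The 250 bases before the start are shown for the called pair in which the match lies there, chr1:145996580-145996829 (minus strand) for TXNIP and chr2:111120664-111120913 (plus strand) for BCL2L11, GRCh38.p14, with the match in capitals. In both, the core lies on the opposite strand, so that its complement is printed, 124 and 223 bases before the start.
TXNIP: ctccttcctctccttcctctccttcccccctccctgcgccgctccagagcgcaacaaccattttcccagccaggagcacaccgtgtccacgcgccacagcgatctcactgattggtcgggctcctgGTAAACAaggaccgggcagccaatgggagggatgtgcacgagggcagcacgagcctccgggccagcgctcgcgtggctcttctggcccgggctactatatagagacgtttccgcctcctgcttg
BCL2L11: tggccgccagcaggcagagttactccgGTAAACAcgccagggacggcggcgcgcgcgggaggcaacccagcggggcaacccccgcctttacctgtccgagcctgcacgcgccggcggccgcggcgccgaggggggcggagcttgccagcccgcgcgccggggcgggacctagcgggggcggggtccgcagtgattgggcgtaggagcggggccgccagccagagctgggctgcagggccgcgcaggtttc

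The targeted kinases were checked at the RNA level. MAP3K7, which encodes TAK1, was at 54.7 to 63.7 CPM with oxozeaenol and at 51.0 to 62.4 CPM in the combination (-0.09, SE 0.082, adjusted p = 0.482). MTOR was at 48.5 to 63.3 CPM and at 52.8 to 56.9 CPM (-0.07, SE 0.088, adjusted p = 0.638). PIK3CA, the catalytic subunit p110 alpha, read 16.1, 15.2, 13.3 and 12.4 CPM with oxozeaenol and 21.4, 20.4, 21.0 and 19.2 CPM in the combination, and rose by 0.52 (SE 0.11, adjusted p = 0.0016). The gene KCNMB3 covers 35.8% of its exonic bases on the other strand. Of 21 genes of the PI3K, AKT and mTOR list, PIK3R3 (-1.05, adjusted p = 0.00192) and the mTOR substrate EIF4EBP1 (-0.98, adjusted p = 0.00382) also changed. With PIK3CA, 14.3% of the list were called, no more than the 14.9% of all genes tested. EIF4EBP1 was at 60.2 to 110 CPM and at 37.1 to 59.3 CPM. In the TAK1 list 4 of 16 were called (25%). MAP2K6, an activator of p38, fell by 1.31 (adjusted p = 0.00104) from 1.79 to 4.08 CPM to 0.773 to 1.47 CPM, and IKBKB, a kinase of NF-kB activation, rose by 0.33 (adjusted p = 0.00111). CHUK (-0.30) and TAB1 (0.26) each lost their call in 6 of the 8 fits without 1 library, CHUK in all but those without combination replicate 2 or oxozeaenol replicate 4 and TAB1 in all but those without combination replicate 4 or oxozeaenol replicate 1. Leaving out combination replicate 1 or 3 or oxozeaenol replicate 2 or 3 left 2 called.

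Of the 10 tested genes taken as readouts of the inhibited pathways, INSR rose, and the polyamine enzyme ODC1 fell by 0.34 (adjusted p = 0.00929), from 379 to 409 CPM to 297 to 332 CPM. TNFAIP3, a feedback inhibitor of NF-kB, read 3.08, 2.72, 1.45 and 2.82 CPM and then 4.10, 3.56, 4.39 and 3.86 CPM (0.64, adjusted p = 0.0387). That call was lost in 5 of the 8 fits without 1 library (combination replicates 1, 3 and 4, oxozeaenol replicates 2 and 3, adjusted p up to 0.146). It was the only one called of 21 tested NF-kB targets (4.76%). NFKBIA was at 35.0 to 38.1 CPM and 37.9 to 41.8 CPM, with an adjusted p of 0.367. IL8 did not exceed 0.208 CPM in any of the 8 libraries, against a mean of 10.2 CPM in control. DUSP6, a phosphatase of ERK, was at 26.5, 33.4, 17.3 and 12.8 CPM with oxozeaenol and at 36.0, 40.3, 33.1 and 30.5 CPM in the combination (0.63, SE 0.27, adjusted p = 0.118). Without oxozeaenol replicate 2 its adjusted p was 0.0379, with the replicate block in the 8 libraries alone it was 0.0387, and an antisense gene covers 40.5% of its exonic bases. HMGCS1, the remaining called readout, is given with the sterol genes. Without combination replicate 1, 3 or 4 or oxozeaenol replicate 3, 2 readouts were called. SPRY4 (adjusted p = 0.475), ETV5 (0.985) and PIK3IP1 (0.594) were not called, while the blocked fit of the 8 libraries gave SPRY4 an adjusted p of 0.0156.

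Sterol and fatty acid synthesis genes were lower in the combination than with oxozeaenol. Summed CPM of the cholesterol list was 2930 to 3642 in control and 3466 to 4091 with PI103. It was 5360 to 6221 with oxozeaenol and 4020 to 4360 in the combination, above every control library. The fatty acid list summed to 2767 to 3342, 2248 to 2736, 3180 to 3650 and 2364 to 2808 in the same order. Of 25 genes of the cholesterol list 17 were called, 16 of them lower (median -0.48, same-batch medians -0.63 to -0.35). The number called was 12 to 19 with single libraries left out. ACAT2, which makes acetoacetyl-CoA at the head of the pathway, was at 302, 366, 409 and 363 CPM with oxozeaenol and at 157, 193, 185 and 197 CPM in the combination. It fell by 0.98 (SE 0.13, adjusted p = 1.14e-05). Genes on the other strand, among them TCP1, cover 52.3% of its exonic bases. MVD, mevalonate decarboxylase, read 70.0, 78.8, 79.3 and 77.0 CPM and then 36.7, 41.0, 41.1 and 43.5 CPM (-0.91, SE 0.13, adjusted p = 3.46e-05). Its mean was 28.2 CPM in control and 36.9 CPM with PI103. FDFT1, which commits the pathway to sterols, fell by 0.73, TM7SF2 by 0.69 and DHCR7 by 0.59. HMGCS1 (-0.55, adjusted p = 0.0417) had groups without overlap, at 614 to 755 CPM and 417 to 496 CPM, and kept its call only without oxozeaenol replicate 1 among the fits that leave out 1 library (adjusted p up to 0.127).

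SREBF2, the factor that drives this list, was at 183 to 213 CPM and 204 to 217 CPM (0.11, adjusted p = 0.406). The sterol element TCACCCCAC was in the promoter window of SREBF2 and of none of the other 17 list members with a window. The share was 0.425% of all promoters and 0.386% of those of genes tested. Of 20 fatty acid genes 8 fell and none rose (40%, median -0.24), and 5 were called without combination replicate 1. ACSS2, which makes acetyl-CoA from acetate, was at 125, 145, 146 and 143 CPM and then at 70.9, 76.5, 78.2 and 72.6 CPM (-0.91, SE 0.12, adjusted p = 1.57e-05). ACSL1, which activates long fatty acids, fell by 0.90 (adjusted p = 8.67e-05), from 63.3 to 68.8 CPM to 31.5 to 41.6 CPM. The desaturase SCD fell by 0.52 (adjusted p = 0.00223), from 1468 to 1774 CPM to 976 to 1284 CPM. FASN was at 315 to 424 CPM and 297 to 348 CPM (-0.24, adjusted p = 0.143, or 0.0122 with the replicate block in the 8 libraries alone). SREBF1 (-0.36, adjusted p = 0.0168) lost its call without combination replicate 1 or 3 (adjusted p up to 0.0673).

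**Figure D4:**
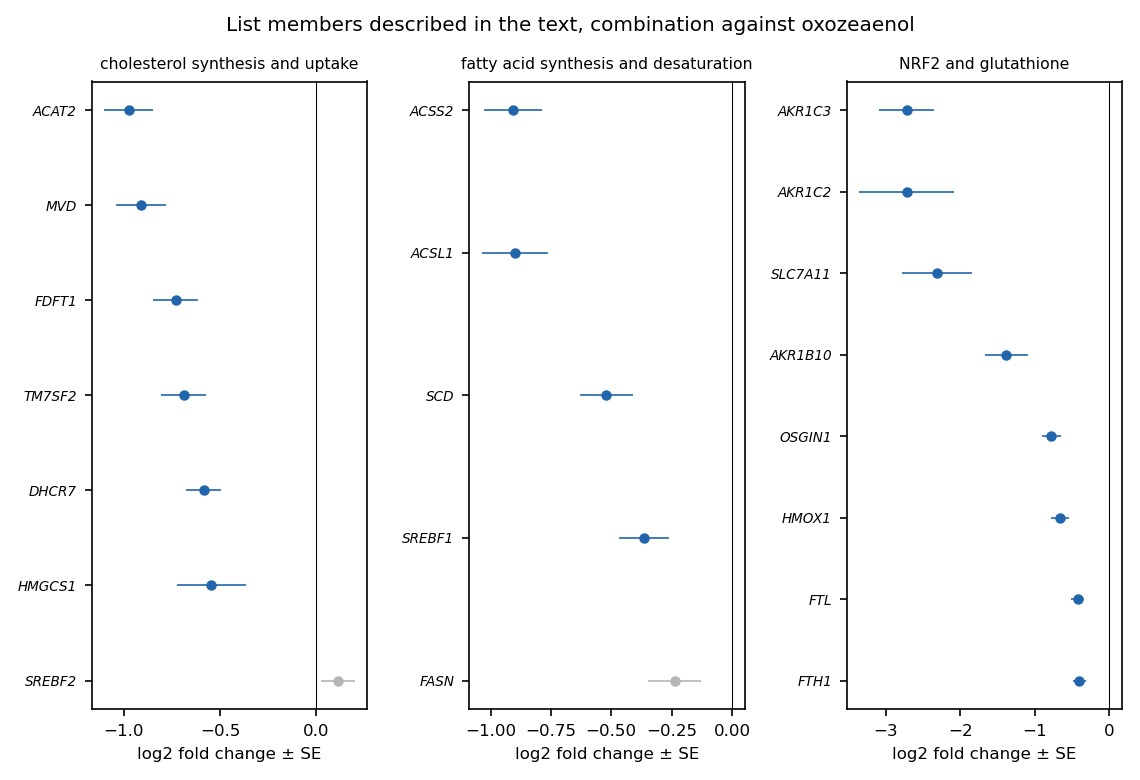
Log2 fold change with its SE (x axis) for the members of the sterol, fatty acid and NRF2 lists that are described in the text (y axis), blue where called lower and grey where not called. AKR1C3 lies furthest to the left with AKR1C2, both at -2.72, and SREBF2 (0.11) and FASN (-0.24) are grey.

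NRF2 is the factor that induces antioxidant genes. Of 21 tested targets and glutathione genes 12 fell and none rose (median -0.39, same-batch medians -0.42 to -0.26, 10 to 12 called without single libraries). The aldo-keto reductase AKR1C3 read 1.91, 3.38, 4.26 and 7.96 CPM with oxozeaenol and 0.516, 0.418, 0.747 and 1.00 CPM in the combination (-2.72, SE 0.37, adjusted p = 3.11e-05). AKR1C2, a near-identical neighbour with which it can share reads, held 5, 19, 8 and 31 counts and then 1, 2, 2 and 5. AKR1B10 fell by 1.38, from 0.681 to 1.04 CPM to 0.297 to 0.379 CPM. OSGIN1 fell by 0.78 (adjusted p = 0.000118). HMOX1, heme oxygenase, was at 70.7, 64.3, 67.5 and 80.7 CPM and then at 43.8, 48.3, 43.2 and 43.8 CPM (-0.66, SE 0.12, adjusted p = 0.000483). The ferritin chains FTL and FTH1 fell by 0.43 and 0.40, from 3547 to 3760 CPM to 2615 to 2782 CPM for FTL. Ferritins have processed copies in the genome, and BEST1 on the other strand covers 62.4% of FTH1. SLC7A11 counts in this list too. The element TGACNNNGC was in 5 of 16 promoter windows of the list (31.2%), in 13.6% of all and in 14.9% of those of genes tested.

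Central carbon metabolism and hypoxia-inducible factor targets were called to different shares, against 14.9% of all genes tested. Of 25 genes of the TCA cycle list IDH1, SUCLA2, DLD, SDHB and SUCLG1 fell (20%, median -0.18). The list is broader than the cycle itself, as it includes the cytosolic enzyme IDH1. IDH1, the cytosolic isocitrate dehydrogenase that makes NADPH, read 770, 911, 966 and 862 CPM with oxozeaenol and 464, 543, 517 and 500 CPM in the combination (-0.79, SE 0.11, adjusted p = 2.45e-05). SUCLA2 fell by 0.47 (adjusted p = 0.00101), DLD by 0.35 and SDHB by 0.35. SUCLG1 (-0.60) lost its call without combination replicate 1 or 3 or oxozeaenol replicate 3 or 4 (adjusted p up to 0.0641). Of the list, 8 were called without oxozeaenol replicate 1 and 8 with the replicate block. Of 23 glycolysis genes 3 were called (13%), near the share of all genes tested. The aldolase ALDOC fell by 0.97 (SE 0.16, adjusted p = 0.000217), from 20.6 to 23.5 CPM to 9.55 to 13.4 CPM. PFKP (0.42, adjusted p = 0.0167) lost its call without combination replicate 1 or oxozeaenol replicate 4 (adjusted p up to 0.0644), and PFKFB2 (-0.28) without combination replicate 1 or oxozeaenol replicate 1, 2 or 4 (adjusted p up to 0.107). The count of this list was 1 without combination replicate 1, 8 without oxozeaenol replicate 1, 5 without oxozeaenol replicate 4, 8 with DESeq2 and 9 with the block. Of 14 hypoxia-inducible factor targets 5 fell and 3 rose (57.1%, median 0.0027). PDK1, which blocks pyruvate entry into the TCA cycle, fell by 0.67 (SE 0.089, adjusted p = 1.55e-05), from 21.7 to 27.3 CPM to 14.2 to 17.1 CPM. VEGFA fell by 0.83 (adjusted p = 0.000777), from 62.8 to 103 CPM to 41.7 to 56.4 CPM, and NDRG1 rose by 0.70. Here 4 were called without combination replicate 1 and 5 without combination replicate 3 or oxozeaenol replicate 3.

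Of 13 BCL2-family genes BMF, BCL2L11, BOK and BBC3 rose and PMAIP1 and BAK1 fell (46.2%, against 14.9% of all genes tested). BCL2L11 encodes the death-promoting protein BIM and was at 27.3, 21.3, 23.5 and 24.2 CPM with oxozeaenol and at 32.8, 32.4, 32.9 and 34.7 CPM in the combination (0.47, SE 0.11, adjusted p = 0.00383). BOK rose by 0.36. PMAIP1, or NOXA, fell by 0.90 (adjusted p = 0.0089), a call lost without oxozeaenol replicate 2 (adjusted p = 0.0524). BBC3 (0.45) lost its call without combination replicate 1 or 3 or oxozeaenol replicate 3 or 4 (adjusted p up to 0.126). BAK1 (-0.34) lost it without combination replicate 1, 3 or 4 or oxozeaenol replicate 2 or 3 (adjusted p up to 0.0661). The count was 4 without combination replicate 1 or 3 or oxozeaenol replicate 2 or 3.

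Of 32 lysosome and autophagy genes 6 rose and 4 fell (31.2%, median -0.02). The genes described here all come from the 6 that rose, so they do not stand for the list as a whole. GAA, the lysosomal glucosidase, was at 38.6, 32.1, 32.5 and 34.6 CPM with oxozeaenol and at 57.7, 49.9, 56.9 and 57.0 CPM in the combination (0.68, SE 0.10, adjusted p = 6.78e-05). Its means were 34.9 CPM with PI103 and 17.7 CPM in control, below every combination library. GABARAPL1, an autophagosome protein, rose by 0.49 (adjusted p = 0.000155). CTSD (0.35, adjusted p = 0.0239) lost its call without combination replicate 1 or 3 or oxozeaenol replicate 2, 3 or 4 (adjusted p up to 0.124), and a same-strand transcript shares 41.7% of its exonic bases. LAMP1 (0.30, adjusted p = 0.0144) lost its call without combination replicate 1 (adjusted p = 0.0824). The list held 5 calls without combination replicate 1 and 6 without oxozeaenol replicate 3.

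Among 22 genes read as MEK and ERK output FOS, CCND1, ETV4 and MYC rose and PHLDA1 fell (22.7%, median 0.31). Same-batch medians ran from -0.04 in batch 1 to 0.61 in batch 4. PHLDA1 read 94.8, 92.2, 65.8 and 63.0 CPM with oxozeaenol and 37.4, 52.7, 34.3 and 35.9 CPM in the combination (-0.98, SE 0.14, adjusted p = 6.76e-05). The immediate-early gene FOS rose by 0.99 (adjusted p = 0.00634), from 4.30 to 6.40 CPM to 9.27 to 11.7 CPM. CCND1, cyclin D1, rose by 0.65 (adjusted p = 0.00664), from 386 to 530 CPM to 647 to 795 CPM, against 891 CPM in control. MYC (0.39) lost its call without combination replicate 1 or 3 or oxozeaenol replicate 4 (adjusted p up to 0.0855). ETV4 (1.17) lost it without combination replicate 1 (adjusted p = 0.09) or oxozeaenol replicate 3 (0.0576). It also lost it with DESeq2 (adjusted p = 0.0694), with no filter on low counts (0.0555) and with the 8 libraries alone, without the block (0.06) or with it (0.0565). Without combination replicate 1, 3 genes of the list were called. Of 14 YAP and TEAD targets DLC1 (0.64, adjusted p = 1.55e-05), CTGF (1.10, adjusted p = 0.000119) and CRIM1 (0.46) rose, and F3, tissue factor, fell by 0.78 (SE 0.077, adjusted p = 7.22e-07), from 25.2 to 28.98 CPM to 14.5 to 18.1 CPM. AJUBA (-0.37) lost its call without combination replicate 1 or 3 or oxozeaenol replicate 2 (adjusted p up to 0.0892). CTGF was at 38.9 to 63.9 CPM and 107 to 121 CPM. Of the YAP and TEAD targets 35.7% were called, against 14.9% of all genes tested. The count was 9 without oxozeaenol replicate 1 and with the replicate block, fits in which 2571 and 3090 of all genes were called.

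Of 12 complement genes CFB, SERPING1, CFD and C1RL rose and C3 fell (41.7%, against 14.9% of all genes tested). CFB, complement factor B, was at 2.87, 2.72, 3.21 and 3.05 CPM with oxozeaenol and at 11.2, 7.46, 9.22 and 7.404 CPM in the combination (1.58, SE 0.24, adjusted p = 8.67e-05). Its means were 0.366 CPM in control and 2.19 CPM with PI103, below every combination library. A same-strand transcript that joins C2 and CFB is among those sharing 45.5% of its exonic bases. C3 held 39, 43, 20 and 37 counts and then 7, 7, 12 and 17 (adjusted p = 0.00187). SERPING1 rose by 1.25. CFD (0.60) lost its call without combination replicate 1 or oxozeaenol replicate 3 and C1RL (0.40) without combination replicate 1, 3 or 4 or oxozeaenol replicate 2 or 3. Leaving out combination replicate 1 or oxozeaenol replicate 3 left 3 complement genes called. Of 34 interferon and antigen presentation genes 9 rose and none fell (26.5%, median 0.24). OAS3, an antiviral RNA sensor, read 51.7, 41.1, 45.9 and 51.3 CPM with oxozeaenol and 70.8, 68.1, 69.4 and 70.7 CPM in the combination (0.55, SE 0.11, adjusted p = 0.0016). DTX3L, a ubiquitin ligase, rose by 0.53 (adjusted p = 0.00137). The count was 3 without combination replicate 1, 5 without combination replicate 3, and 6 without oxozeaenol replicate 1 or 3.

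The cell-cycle lists differed in their shares of calls, from 0 of 28 for mitosis to 4 of 8 for cyclins D and CDK inhibitors. The share of all genes tested was 14.9%. None of 28 mitosis genes was called in the edgeR test or with DESeq2, and 0 had an unadjusted p under 0.05 in edgeR. With only the 8 libraries fitted 2 were called, and 12 when the block was added to that fit. Of 29 DNA replication genes E2F2, MCM5, MCM3, UHRF1 and MCM7 rose and none fell (17.2%, median 0.22, same-batch medians 0.20 to 0.25). E2F2 was at 13.3, 13.1, 13.4 and 16.7 CPM and then at 20.8, 16.1, 22.1 and 21.6 CPM (0.51, SE 0.13, adjusted p = 0.0087). MCM5 (0.41, adjusted p = 0.0172) lost its call without combination replicate 1 or 3 or oxozeaenol replicate 2 (adjusted p up to 0.0769). MCM3 (0.40) lost it without any of these or oxozeaenol replicate 3, UHRF1 (0.39) without combination replicate 1, 3 or 4 or oxozeaenol replicate 2 or 3, and MCM7 (0.37) in all such fits but the one without oxozeaenol replicate 1. The list had 1 call without combination replicate 1 or 3 or oxozeaenol replicate 2, 2 without oxozeaenol replicate 3, 3 without combination replicate 4, 9 without oxozeaenol replicate 1 and 12 with the block. Of 8 genes of cyclins D and CDK inhibitors 4 were called (50%). CCND1, CDKN2C (0.48, adjusted p = 0.0158) and CDKN1B rose and CDKN2B fell by 0.43. CDKN2C lost its call without combination replicate 1 (adjusted p = 0.0537) and CDKN2B without combination replicate 1 or 3 or oxozeaenol replicate 3 or 4. The list held 1 call without combination replicate 1, and 2 without combination replicate 3 or oxozeaenol replicate 3 or 4. Of 18 p53 targets SESN1, FAS and RRM2B fell and BBC3 rose (22.2%). FAS (-0.56, adjusted p = 0.0144), a death receptor, lost its call without oxozeaenol replicate 3 (adjusted p = 0.0508), and RRM2B (-0.30) lost it in every such fit but the one without oxozeaenol replicate 1. The count was 2 without combination replicate 1 or 3 or oxozeaenol replicate 3, and 8 with the block.

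In the edgeR test, 9.52% to 14.3% of the lists of growth and protein folding were called, against 14.9% of all genes tested, and the largest of these shares was near it. In the 8 libraries alone with the replicate block, 4944 of 13204 genes tested were called. That fit called 23 ribosome biogenesis genes, 8 purine and pyrimidine genes and 10 chaperones. Of 42 ribosome biogenesis genes PNO1, UTP15, POLR1C and NOP2 fell (9.52%, median -0.19). PNO1 (-0.62, adjusted p = 0.0182) was at 78.4, 89.4, 123 and 91.8 CPM and then at 54.0, 66.8, 60.2 and 68.2 CPM. The count was 0 without combination replicate 1 or 3 or oxozeaenol replicate 3, 1 without oxozeaenol replicate 2, 2 without combination replicate 4, 8 without oxozeaenol replicate 4 and 7 with the block. The fold changes of the others were -0.36 for UTP15, -0.34 for POLR1C and -0.33 for NOP2, and each of these was lost in 5 or 6 of the 8 fits without 1 library (adjusted p up to 0.149). Of 21 purine and pyrimidine genes ADSSL1 (-0.59, adjusted p = 0.0224) and RRM2B fell and CTPS2 (0.23, adjusted p = 0.0239) rose (14.3%). ADSSL1 lost its call without combination replicate 2 or 3 or oxozeaenol replicate 4, and CTPS2 without combination replicate 1, 2 or 3 or oxozeaenol replicate 3 or 4. The list had 0 calls without combination replicate 2 or 3 and 1 without combination replicate 1 or oxozeaenol replicate 3. Of 26 chaperones 3 were called (11.5%). HERPUD1, a protein of endoplasmic reticulum quality control, fell by 0.81 (SE 0.14, adjusted p = 0.000463), from 79.8 to 120 CPM to 50.5 to 60.2 CPM. HSPB1 fell by 0.42, with the call lost without combination replicate 1 or 4 or oxozeaenol replicate 1 or 2. HSPA1A, which shares reads with its near-identical copy HSPA1B, rose by 0.79 from 1.18 to 1.73 CPM to 2.18 to 2.68 CPM. The count was 5 without oxozeaenol replicate 4 and 7 with the block.

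Of 12 apolipoproteins APOL1 (1.08, adjusted p = 3.11e-05) and APOL2 (0.39) rose and APOE fell by 1.19 (adjusted p = 0.00357). The share called was 25%, against 14.9% of all genes tested. APOL1, which is induced by interferon, was at 10.9, 8.10, 9.71 and 9.30 CPM and then at 23.6, 17.0, 23.1 and 16.5 CPM. Of 15 tested sarcomere genes TNNC1 fell by 0.78 (adjusted p = 0.00809), from 55.9 to 86.8 CPM to 39.6 to 46.2 CPM, and TNNT1 rose by 0.43. TNNT1 lost its call without combination replicate 1 (adjusted p = 0.0853). MYL2 held 1, 2, 3 and 0 counts and then 34, 10, 12 and 9, a call lost without combination replicate 1 (adjusted p = 0.0587). The cardiac troponin TNNT2 was at 9.82 to 14.7 CPM with oxozeaenol and at 11.6 to 13.5 CPM in the combination, at 50% of the oxozeaenol dose (0.02, adjusted p = 0.962), against 0.275 CPM in control and 1.00 CPM with PI103. The sarcomere count, 3 of 15 (20%), was 1 without combination replicate 1 and 5 without combination replicate 4. Of 20 gastric and intestinal genes SOX2, TFF1, TFF3 and CLDN18 fell and none rose (20%, median 0.10). SOX2, a stomach transcription factor, read 43.7, 46.3, 39.6 and 40.6 CPM with oxozeaenol and 18.1, 25.8, 18.5 and 21.9 CPM in the combination (-1.01, SE 0.18, adjusted p = 0.00065). Its means were 10.8 CPM in control and 13.6 CPM with PI103. The trefoil factor TFF1 fell by 1.09, from 8.82 to 17.5 CPM to 3.88 to 6.89 CPM, and TFF3 held 34, 39, 23 and 40 counts and then 10, 10, 3 and 2 (adjusted p = 0.00159). CLDN18 did not exceed 0.71 CPM and lost its call without combination replicate 1 (adjusted p = 0.0538). EPCAM, KRT8 and LYZ were not called.

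**Figure D5:**
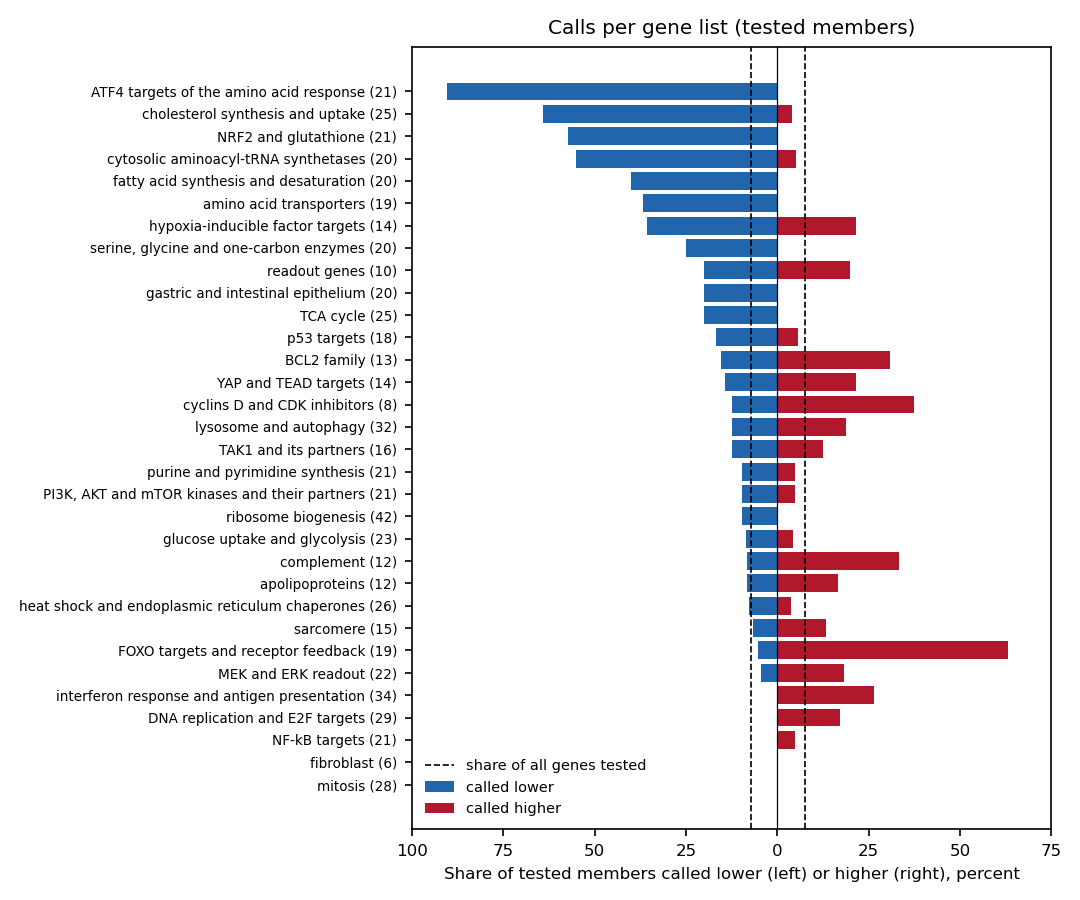
Share of tested members called lower (blue, to the left) or higher (red, to the right) for each gene list with at least 6 tested members, whose number stands in parentheses. Dashed lines mark the shares over all genes tested, 7.28% lower and 7.59% higher, and the ATF4 list reaches 19 of 21 lower.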

How the data were processed

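The members of the gene lists and the genes to be named were chosen with earlier results of these data known. RNA came from AGS cells in 4 batches, and the labels' protocols name a stranded mRNA kit. The authors deposited a table of raw read counts per gene, aligned to GRCh38 per the submitters' processing notes. The aligner, counter, annotation and use of strand are not given in the sources used here. Rows that tally reads without a gene were left out, and in these 8 libraries they held 5.74% to 8.57% (no feature), 1.70% to 2.01% (ambiguous) and 5.16% to 6.06% (not unique). Total counts per library are given with the results.

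Genes were kept by edgeR's filterByExpr, scaled by TMM and tested with edgeR 4.0.16 in R 4.3.3 (quasi-likelihood test, two-sided, 1 coefficient per group, all 24 libraries). Genes with a Benjamini-Hochberg adjusted p under 0.05 over all 13947 genes were called, and each adjusted p in the text is from this test unless another is named. CPM values use the scaled library. The labels name no separate cultures, so p-values measure the spread between these libraries. Alternatives were DESeq2 1.42.0, other scalings and filters, the 8 libraries alone, the batch as a block and leaving out each library. The labels give each library a batch number, which pairs the samples. Deviations of same-batch libraries correlated at 0.217, 0.182, 0.0778 and 0.547. Those of libraries from different batches correlated at -0.389 to 0.21, so that only the batch 4 pair stood clearly above them. The scripts were tested on simulated data.

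Named genes were the 10 largest rises and falls among called genes at a mean of 5 CPM or more with 1 sign in 4 batches, the 2 members with the smallest adjusted p in each list with at least 3 called, the readout genes, MAP3K7, PIK3CA and MTOR. Other named genes were chosen after their values were seen. Exon overlaps come from GENCODE release 29. Some results are not reported here.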

Additional observations from a re-analysis of the deposited data

Results flagged for a closer look

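Single libraries stood apart from the other 3 of their group (Dixon's test at 95%) for 38 of 324 groups of 4 examined, or 11.7%. Chance flags about 1 in 20 independent groups. These groups are not independent, since the same 8 libraries supply all of them and many of the genes belong to 1 response. The 11.7% therefore cannot be weighed against that rate. Most were combination replicate 2, which was high for NUPR1 (3.52 CPM), DDIT4 (32.7), CHAC1 (27.7), CTH (9.85), SLC7A11 (51.3), ASNS (189), PSAT1 (412), GPT2 (57.1), SLC6A9 (20.6), MTHFD2 (278) and YARS (143). It was also high for GARS (245 CPM), SESN2 (22.8), SLC7A5 (388), EIF4EBP1 (59.3), TRIB3 (0.284), FGF21 (0.284), PHLDA1 (52.7), HERPUD1 (60.2), ODC1 (332) and HMOX1 (48.3). The same library was low for BMF (19.1 CPM), GAA (49.9) and C1RL (17.5).

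Oxozeaenol replicate 2 was high for CTH (42.8 CPM) and ECM2 (10.1). Oxozeaenol replicate 1 was low for ACSS2 (125 CPM) and ACSL1 (63.3) and high for BOK (46.1). Oxozeaenol replicate 4 was high for E2F2 (16.7 CPM) and low for CDKN1B (136), KRT8 (2115) and TAB1 (19.0), and replicate 3 was low for PFKFB2 (43.1). Combination replicate 1 was high for SERPING1 (3.42 CPM) and APOL2 (30.6), and combination replicate 4 was low for EPCAM (787) and HSPB1 (78.6).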

How the results depend on the processing

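Of 160 genes examined singly, 145 were called, and 100 of these were called in every alternative other than the minimum change of 1. The count of called genes was 1753 with no filter on low counts, 2034 with library totals only, 2080 with DESeq2's size factors, 2119 at a mean of at least 1 CPM, 2236 with the 8 libraries alone and 2510 with DESeq2. With library totals 57.3% of calls were higher, against 51.1%, and the median over all genes moved from -0.0046 to 0.025. With the replicate block 3090 genes were called (1570 lower), 23 of them past the minimum change of 1. With the replicate block in the 8 libraries alone 4944 were called (2356 higher, 2588 lower), 34 past the minimum change, and without the block in those 8 libraries 4 were past it. The block moved no named gene across the threshold in the fit of all 24 libraries, while in the 8 libraries alone the blocked fit called DUSP6, SPRY4 and FASN and lost ETV4. Calls were lost for DDIT4, CHAC1, SLC7A11, CTPS2, ETV4 and TAB1 with the 8 libraries alone, for HMGCS1, NOP2, PFKFB2 and RRM2B with library totals, and for CTPS2, HMGCS1, CDKN1B, ETV4, TAB1 and MCM7 with no filter. Leaving out single libraries gave 1050 to 2571 calls, 542 to 1308 higher and 508 to 1263 lower, and 0 to 22 past the minimum change. The lowest of each came without combination replicate 1. Uncalled genes changed sign when single libraries were left out, with log2 fold changes of -0.11 to 0.16 for ETV5, -0.18 to 0.47 for IL8, -0.13 to 0.26 for ATF3, -0.068 to 0.12 for TNNT2 and -0.019 to 0.049 for EPCAM. The cause was not tested. Depth limits genes with few counts, such as MYL2 and TFF3.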

Other observations

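A further 6 genes passed the minimum change of 1 in edgeR below the level set for naming genes, and were chosen after their values were seen. ALDH1A1, a retinaldehyde dehydrogenase, was at 2.02 to 3.44 CPM with oxozeaenol and at 0.320 to 0.568 CPM in the combination. ECM2, a matrix protein, was at 2.56 to 10.1 CPM and at 0.116 to 1.25 CPM, against a mean of 21.7 CPM in control. ANK2, a membrane adaptor, was at 0.710 to 1.77 CPM and at 0.0890 to 0.303 CPM. SIGLEC6, a sialic acid-binding lectin, rose from 0.539 to 1.78 CPM to 6.21 to 7.66 CPM. The protease KLK14 rose from 1.46 to 1.94 CPM to 5.54 to 8.34 CPM, with a mean of 5.73 CPM under PI103 alone. DFNA5, gasdermin E, held 4, 7, 3 and 3 counts with oxozeaenol and 87, 32, 23 and 29 in the combination.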
